A study of Homo sapiens with 6 samples.

Results

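The genes described here are 10 targets of the unfolded protein response of the endoplasmic reticulum (ER), namely HSPA5, HSP90B1, PDIA4, DNAJB9, HERPUD1, SDF2L1, XBP1, CALR, MANF and HYOU1. They were taken by their symbols from a deposited table of 29845 genes, which held each of them in 1 row, and all 10 were among the 16555 genes that passed the filter on low counts. RNA-seq was performed on A549 cells, an established human lung epithelial cancer line, transfected with the pIRES-hrGFP-1a vector carrying FLAG-tagged human TFAM (TFAM-OE) or with the empty vector (control), and harvested 48 h after transfection. Every library therefore came from cells that had received plasmid DNA, a transfection reagent and a GFP reporter, and neither group was an untransfected culture. No step that selected or sorted transfected cells is described in the sources read here, and each library is taken as a mixture of transfected and untransfected cells, in which a change in a few cells and a smaller change in all cells cannot be told apart. There were 3 libraries per group, described by the study as biological replicates, and the comparison asked which transcripts differ when TFAM, a packaging and transcription factor of mitochondrial DNA, is supplied from a plasmid.

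The libraries held 26650854 to 37321956 reads, and the 10 genes had between 626 and 26969 reads in a library. TFAM itself had 2555, 1878 and 2663 reads in control replicates 1 to 3 and 2291, 2808 and 2492 reads in the TFAM-OE-labelled libraries, with a log2 fold change of 0.08 and a standard error of 0.096 (adjusted p = 0.623). With the GC offset described below, these became 0.25 and an adjusted p of 0.0716. The study assayed the FLAG-tagged protein by western blot, which is not analysed here, and whether reads from the plasmid copy entered the count is not given in the sources read. Since the read counts of the groups overlapped for the targeted gene, the second group is called by its label throughout. The keratins KRT8, KRT18, KRT7 and KRT19 were abundant in every library, whereas the epithelial markers EPCAM, with 9 to 32 reads, and CDH1, with 117 to 249 reads, were low. Leukocyte, endothelial and fibroblast markers summed to at most 2.95, 0.03 and 0.63 FPKM in a library, with PTPRC, CDH5, VWF and DCN at or near 0. Other markers of the leukocyte and fibroblast lists had reads in every library, with 58 to 160 for CD14, 28 to 113 for CD68 and 83 to 173 for COL1A1. The number of genes called across the table depended on single libraries. Beside 576 genes called higher and 796 called lower in the TFAM-OE-labelled group, there were 90 and 252 without control replicate 1, 66 and 240 without control replicate 2, 89 and 262 without TFAM-OE replicate 2, and 1428 and 1786 without TFAM-OE replicate 3. Values without these libraries are given where leaving one out changed a call of a named gene.

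The ER folds, disulfide-bonds and glycosylates proteins on their way to the cell surface. When unfolded proteins build up there, IRE1 (encoded by ERN1) splices XBP1 mRNA, ATF6 is cut in the Golgi to release a transcription factor, and PERK (encoded by EIF2AK3) slows translation and favours ATF4 and CHOP (encoded by DDIT3). ATF6 and spliced XBP1 switch on chaperones and degradation factors, and the 10 genes are widely used as a readout of these arms. In secretory and epithelial cells many of them are also expressed without stress, as parts of the everyday folding machinery.

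Several of the genes hold short promoter elements through which ATF6, XBP1 and NF-Y are known to act, and these are shown first. The genes were chosen as known targets of this response, so the elements are not independent of that choice. Their shares are a description and not a test. The ER stress response element (ERSE) was searched as CCAAT and CCACG separated by any 9 bases, its second form (ERSE-II) as ATTGG, any 1 base and CCACG, and the unfolded protein response element (UPRE) as TGACGTGG, each on both strands of RefSeq windows of GRCh38.p14 that hold 250 bases before and 50 bases after a transcript start. An exact ERSE was found for 4 of the 10 genes, HSPA5, HSP90B1, XBP1 and CALR, and in 0.0769% of all 35116 windows. ERSE-II was found for HERPUD1, SDF2L1 and HYOU1 and in 0.0541% of all windows, and a UPRE for HYOU1 and in 0.729% of all windows. Altogether 7 of the 10 genes, and 7 of their 12 windows, held at least 1 of these elements, as did 0.857% of all windows. Exact ERSE, ERSE-II and UPRE were held by 4, 3 and 1 of the 12 windows. Bases of each element are in capitals with flanks in lower case, 5′ to 3′ on the strand of the gene, and positions count back from -1, the last base before the start.

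HSPA5, ERSE at -66 to -48 (chr9:125241381-125241419, minus strand): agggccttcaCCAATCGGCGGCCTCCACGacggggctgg
HSP90B1, ERSE at -194 to -176 (chr12:103930206-103930244, plus strand): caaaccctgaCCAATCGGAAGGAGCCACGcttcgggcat
HSP90B1, inverted ERSE at -89 to -71 (chr12:103930311-103930349, plus strand): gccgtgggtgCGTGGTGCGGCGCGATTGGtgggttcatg
XBP1, ERSE at -52 to -34 (chr22:28800593-28800631, minus strand): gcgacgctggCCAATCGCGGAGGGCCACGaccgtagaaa
CALR, inverted ERSE at -225 to -207 (chr19:12938374-12938412, plus strand): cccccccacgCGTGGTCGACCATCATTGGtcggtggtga
HERPUD1, ERSE-II at -117 to -107 (chr16:56932015-56932045, plus strand): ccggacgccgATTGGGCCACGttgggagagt
SDF2L1, inverted ERSE-II at -188 to -178 (chr22:21642104-21642134, plus strand): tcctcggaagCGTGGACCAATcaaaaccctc
HYOU1, inverted ERSE-II at -185 to -175 (chr11:119057370-119057400, minus strand): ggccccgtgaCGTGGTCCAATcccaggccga
HYOU1, inverted ERSE-II at -79 to -69 (chr11:119057264-119057294, minus strand): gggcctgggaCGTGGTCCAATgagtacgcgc

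HSP90B1 carried 2 exact ERSEs in opposite orientations and HYOU1 carried 2 copies of ERSE-II, the first of which overlaps its UPRE at -188 to -181. The ERSE-II of SDF2L1 overlaps a copy of ERSE with 1 mismatch, at A17T, where positions are counted from 1 at the 5′ end of the element, the motif's base comes first and the promoter's base last. With up to 1 mismatch among the fixed letters, ERSE was held by 7 of the 10 genes, in 7 of their 12 windows, and by 1.55% of all windows. PDIA4, DNAJB9 and MANF held no exact copy of the elements searched in these windows. All 10 genes held a CCAAT box on either strand, in 11 of their 12 windows. The box was also held by 34.6% of all windows, a far larger share than for the elements above. The 250 bases before the start of DNAJB9 are printed because it is the gene with the lowest fold change below, with its CCAAT box in capitals.

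DNAJB9, upstream region (chr7:108569624-108569873, plus strand): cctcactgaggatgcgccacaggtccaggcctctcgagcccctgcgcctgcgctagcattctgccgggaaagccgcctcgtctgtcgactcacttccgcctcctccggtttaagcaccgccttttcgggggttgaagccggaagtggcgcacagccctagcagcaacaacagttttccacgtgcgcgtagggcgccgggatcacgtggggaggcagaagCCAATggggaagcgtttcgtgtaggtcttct

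The levels of the 10 genes were first compared with each other as FPKM, read counts scaled to transcript length and library size as the authors calculated them, since only a value per length can be compared between genes. In the control libraries they ran from 287 ± 9.31 FPKM (SD, n = 3) for CALR to 9.62 ± 2.39 FPKM (SD, n = 3) for DNAJB9, and all 10 lay between the 70.9th and the 98.9th percentile of the genes tested. CALR was the highest of the 10 and DNAJB9 the lowest in each of the 6 libraries. HSPA5 came second in every library, with 130 to 178 FPKM in the control and 116 to 154 FPKM in the TFAM-OE-labelled libraries. HSP90B1 followed with 118 to 174 FPKM and 78.0 to 141 FPKM, ranges that overlap those of HSPA5. PDIA4, at 96.2 ± 5.64 FPKM in the control (SD, n = 3), lay below HSP90B1 in 5 libraries and above it in TFAM-OE replicate 1.

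**Figure D1:**
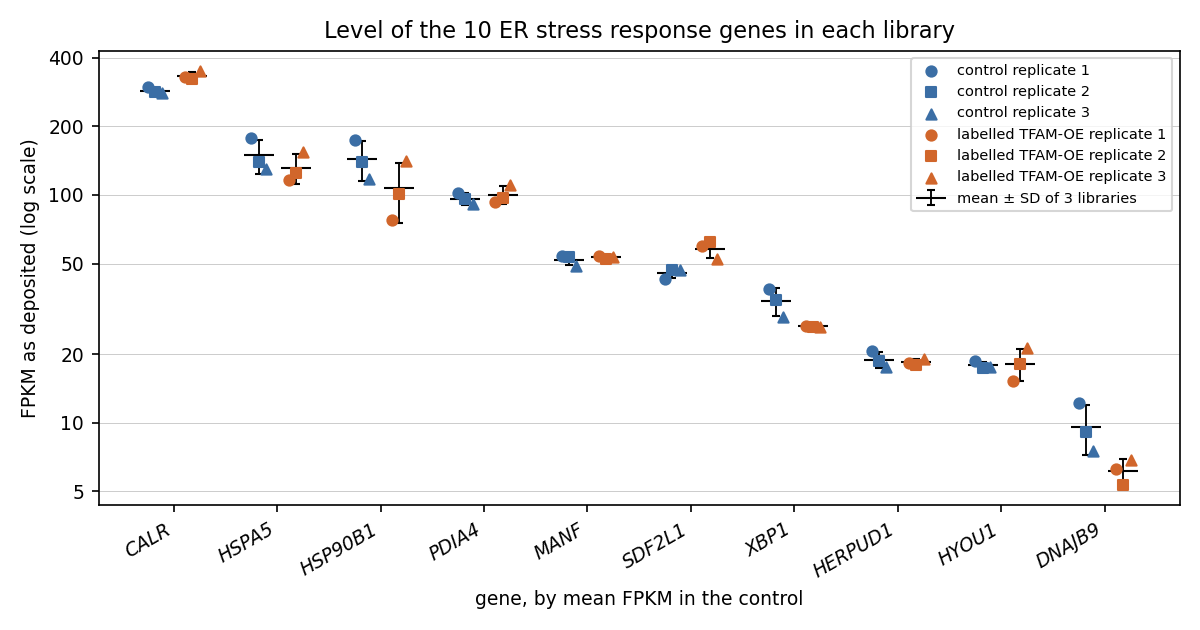
Deposited FPKM on a log scale (vertical axis) of each of the 10 genes (horizontal axis, ordered by mean control level) in the 3 control libraries (blue) and the 3 libraries labelled TFAM-OE (orange), with marker shapes for replicates and black lines for the mean ± SD. CALR is highest in all 6 libraries and DNAJB9 lowest, and the groups lie apart for CALR, SDF2L1, XBP1 and DNAJB9.

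In the middle of the order, MANF lay above SDF2L1 in all 3 control libraries, at 52.0 ± 2.66 against 45.5 ± 2.25 FPKM (SD, n = 3), and below it in TFAM-OE replicates 1 and 2. XBP1 was next, at 34.2 ± 4.80 FPKM in the control (SD, n = 3). HERPUD1, at 18.9 ± 1.54 FPKM, and HYOU1, at 17.9 ± 0.665 FPKM (SD, n = 3), did not differ beyond their spread in the control, and each was the higher of the pair in 3 of the 6 libraries. Summed over the 10 genes, the FPKM was 939, 838 and 786 in control replicates 1 to 3 and 796, 829 and 934 in TFAM-OE replicates 1 to 3. The highest sums, in control replicate 1 and TFAM-OE replicate 3, came from opposite groups, and the summed level did not separate the groups.

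For the comparison between groups, reads were scaled to the size of each library with TMM factors (CPM), tested with edgeR, and a gene was called where its Benjamini-Hochberg adjusted p over all 16555 genes was below 0.05. The 10 genes were not tested as a set, and their counts are given beside the share of all genes. Of the 10 genes, 1 was called lower in the labelled TFAM-OE libraries, DNAJB9, against 4.81% of all genes tested, and 0 were called higher, against 3.48%. DESeq2 and limma-trend called SDF2L1 higher, and limma-voom called none of the 10. At an unadjusted p below 0.05 there were 5 genes, DNAJB9, HSP90B1 and XBP1 with lower values and SDF2L1 and CALR with higher values, and this threshold was passed by 13.2% of all genes with lower and 12.2% with higher values. When at least a 2-fold difference was also required, 0 of the 10 were called, against 0.447% of all genes called higher and 2.07% called lower. The libraries of the groups did not overlap for 4 genes, with SDF2L1 and CALR higher and XBP1 and DNAJB9 lower in the labelled TFAM-OE libraries, and such non-overlap was seen for 15.8% of all genes in the higher and 15.8% in the lower direction. Log2 fold changes were above 0 for 5 genes and below 0 for 5, with a median of 0.01 beside -0.01 for all genes tested. With 3 libraries against 3, an exact permutation test of a single gene cannot give a two-sided p below 0.1.

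**Figure D2:**
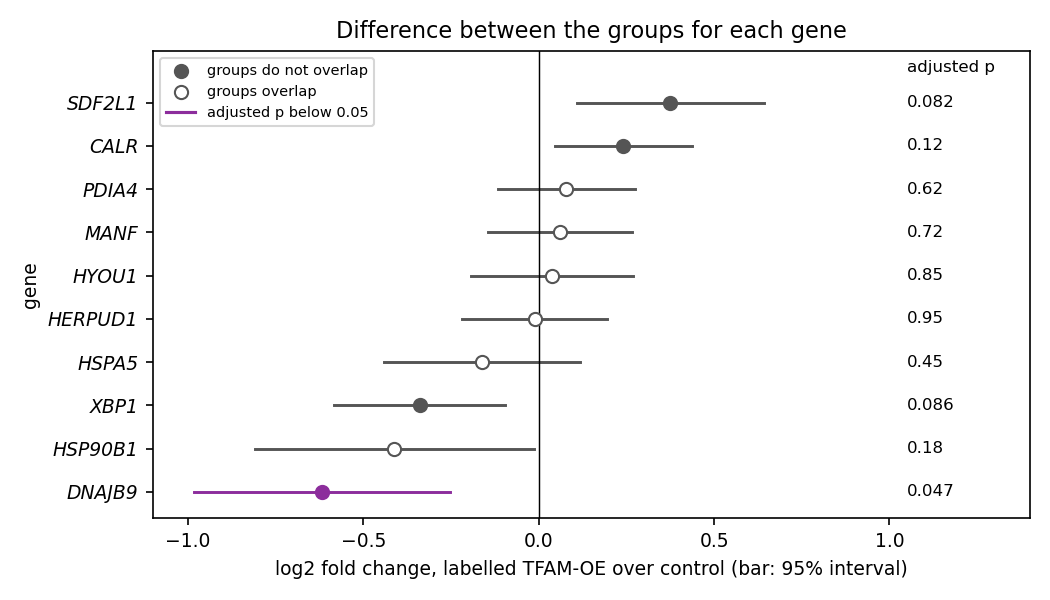
Log2 fold change of the labelled TFAM-OE libraries over the control (horizontal axis) for each of the 10 genes (vertical axis), with 95% intervals as bars, filled points where the groups do not overlap and the adjusted p of edgeR's quasi-likelihood test at the right. The values run from -0.62 for DNAJB9 (purple, adjusted p below 0.05) to 0.38 for SDF2L1, with 5 genes on each side of 0.

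The major chaperones of the ER lumen were not called. HSPA5 (ENSG00000044574.7, chr9:125234853-125241382, minus strand) encodes BiP, the Hsp70 chaperone that also holds the stress sensors inactive. It measured 793, 645 and 609 CPM in control replicates 1 to 3 and 568, 583 and 679 CPM in TFAM-OE replicates 1 to 3. The groups overlapped, because TFAM-OE replicate 3 lay above control replicates 2 and 3, and the log2 fold change was -0.16 with a 95% interval from -0.44 to 0.12 (standard error 0.125, adjusted p = 0.450). The interval as a fold change ran from 0.737 to 1.08.

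HSP90B1 (ENSG00000166598.12, chr12:103930107-103953931, plus strand) encodes GRP94, the ER member of the Hsp90 chaperones. Its values were 565, 468 and 403 CPM in the control and 278, 348 and 453 CPM in the TFAM-OE-labelled libraries. TFAM-OE replicate 1 was the lowest of all 6 libraries for this gene and TFAM-OE replicate 3 lay within the range of the control, and the standard error of 0.178 was the largest of the 10. The log2 fold change was -0.41 with a 95% interval from -0.81 to -0.01 and an adjusted p of 0.181. Without TFAM-OE replicate 3 it was -0.60 (adjusted p = 0.0109), and without control replicate 1 it was -0.27 (adjusted p = 0.541). The adjusted p was 0.00982 when no filter on low counts was applied. In that fit edgeR took the variance of each gene from the trend over all genes, with infinite prior degrees of freedom against 5.98 in the reported fit. In GENCODE the gene overlaps TTC41P and UQCC6 on the opposite strand and MIR3652 on its own. UQCC6 had 250 to 378 reads in a library against 8866 to 18970 for HSP90B1, and a log2 fold change of -0.04.

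CALR (ENSG00000179218.13, chr19:12938578-12944489, plus strand) encodes calreticulin, a calcium-binding lectin chaperone that retains glycoproteins until they are folded. It measured 644, 636 and 639 CPM in the control and 779, 742 and 747 CPM in the TFAM-OE-labelled libraries. Every labelled TFAM-OE library was above every control library, and the spread within each group was narrow, at 640 ± 4.11 against 756 ± 20.2 CPM (SD, n = 3). The log2 fold change of 0.24 (95% interval 0.05 to 0.44, standard error 0.088) did not pass the threshold, with an adjusted p of 0.119, and in each of the other fits tried its adjusted p was between 0.066 and 0.327.

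The co-chaperones and exchange factors that serve HSPA5 had log2 fold changes on both sides of 0. Among them only DNAJB9 was called in the reported fit, and differences between these genes were not tested. DNAJB9 (ENSG00000128590.4, chr7:108569867-108574850, plus strand) encodes ERdj4, a J-domain protein that helps degradation of misfolded proteins and represses IRE1. It measured 37.8, 29.1 and 24.5 CPM in control replicates 1 to 3 and 21.2, 17.4 and 20.9 CPM in the TFAM-OE-labelled libraries. All labelled TFAM-OE libraries lay below all control libraries, although control replicate 3 was closer to TFAM-OE replicate 1 than to control replicate 1. DNAJB9 fell by 0.62 on the log2 scale (95% interval -0.98 to -0.25, standard error 0.164, adjusted p = 0.0468), a fold change of 0.651. The call was lost without control replicate 1 (-0.43, adjusted p = 0.199), without control replicate 2 (-0.64, adjusted p = 0.140) and without TFAM-OE replicate 2 (-0.53, adjusted p = 0.202). It was also lost with limma-voom (adjusted p = 0.0541), limma-trend on FPKM with 0.1 or 1 added (0.0643 and 0.0735) and library size alone (0.0704).

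SDF2L1 (ENSG00000128228.4, chr22:21642302-21644299, plus strand) encodes an ER-resident protein that works with J-domain co-chaperones of HSPA5. Its values were 42.2, 47.6 and 48.8 CPM in the control and 64.2, 64.4 and 51.1 CPM in the TFAM-OE-labelled libraries. TFAM-OE replicates 1 and 2 stood well above the control and TFAM-OE replicate 3 just above it, and the log2 fold change was 0.38 (95% interval 0.11 to 0.64, standard error 0.119, adjusted p = 0.0822). The adjusted p was below 0.05 without TFAM-OE replicate 3 (log2 fold change 0.48, adjusted p = 0.00752), with DESeq2 (0.0497), with limma-trend on FPKM with 0.1 or 1 added (0.0405 and 0.0402) and without the filter on low counts (0.0388).

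HYOU1 (ENSG00000149428.18, chr11:119044188-119057227, minus strand) encodes GRP170, a large Hsp70-like protein that exchanges the nucleotide of HSPA5. It measured 100.2, 96.9 and 99.9 CPM in the control and 89.7, 103 and 113 CPM in the TFAM-OE-labelled libraries. The control libraries were nearly level, and the labelled TFAM-OE libraries lay on both sides of them. Its log2 fold change of 0.04 (95% interval -0.19 to 0.27, standard error 0.104, adjusted p = 0.854) became -0.04 without TFAM-OE replicate 3.

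MANF (ENSG00000145050.15, chr3:51385291-51389397, plus strand) encodes a secreted, stress-induced protein that binds HSPA5. It measured 70.7, 72.4 and 67.7 CPM in the control and 77.8, 72.5 and 69.5 CPM in the TFAM-OE-labelled libraries, so the ranges of the groups overlapped. Its log2 fold change was 0.06 with a 95% interval from -0.15 to 0.27 (standard error 0.093, adjusted p = 0.724).

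The single disulfide isomerase among the 10, PDIA4 (ENSG00000155660.10, chr7:149003062-149028662, minus strand), encodes ERp72. It measured 337, 327 and 316 CPM in the control and 338, 337 and 361 CPM in the TFAM-OE-labelled libraries. The lowest labelled TFAM-OE library was level with the highest control library, and the groups overlapped by that margin alone. Its log2 fold change was 0.08 (95% interval -0.12 to 0.28, standard error 0.088, adjusted p = 0.616).

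HERPUD1 (ENSG00000051108.14, chr16:56932142-56944864, plus strand) encodes Herp, a membrane protein of the complex that moves misfolded proteins out of the ER for degradation. It measured 69.0, 64.9 and 62.0 CPM in the control and 67.4, 63.6 and 63.3 CPM in the TFAM-OE-labelled libraries, so that the labelled TFAM-OE range lay inside that of the control. Of the 10 log2 fold changes it had the one nearest to 0, at -0.01 (95% interval -0.22 to 0.20, standard error 0.093, adjusted p = 0.954). As a fold change the interval ran from 0.859 to 1.14.

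XBP1 (ENSG00000100219.16, chr22:28794555-28800597, minus strand) encodes the transcription factor made active when IRE1 splices its mRNA. Its values were 89.6, 83.4 and 71.1 CPM in the control and 67.6, 64.8 and 60.6 CPM in the TFAM-OE-labelled libraries. All labelled TFAM-OE libraries lay below all control libraries, and their deposited FPKM values were close together, at 26.6, 26.4 and 26.4. The log2 fold change was -0.34 (95% interval -0.58 to -0.09, standard error 0.110) with an adjusted p of 0.0856, and the adjusted p stayed between 0.058 and 0.312 in the other fits. A count per gene adds the spliced and unspliced forms, so the share of spliced XBP1 mRNA was not analysed here.

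Set against the promoter elements printed above, genes with like elements had estimated fold changes on both sides of 0. The genes with an exact ERSE had log2 fold changes of -0.41 for HSP90B1, -0.34 for XBP1, -0.16 for HSPA5 and 0.24 for CALR. Those with ERSE-II had -0.01 for HERPUD1, 0.04 for HYOU1 and 0.38 for SDF2L1, and the 3 genes with none of the elements had -0.62 for DNAJB9, 0.06 for MANF and 0.08 for PDIA4. No test was made of groups this small.

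Within the control, the 10 genes were often ordered alike. Control replicate 1 was the highest of the control libraries for 8 of the 10 genes, all but SDF2L1 and MANF, and control replicate 3 was the lowest for 7. Over all genes tested, control replicate 1 was the highest for 37.3% and control replicate 3 the lowest for 35.9%. Among the TFAM-OE-labelled libraries, replicate 1 was highest for 5 genes, replicate 3 for 4 and replicate 2 for SDF2L1, near the 43.5%, 39.2% and 17.3% of all genes tested. The largest departures from a gene's own mean over the 6 libraries, on the log2 CPM scale, were 0.63 for DNAJB9 in control replicate 1, -0.56 for HSP90B1 in TFAM-OE replicate 1 and -0.48 for DNAJB9 in TFAM-OE replicate 2.

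**Figure D3:**
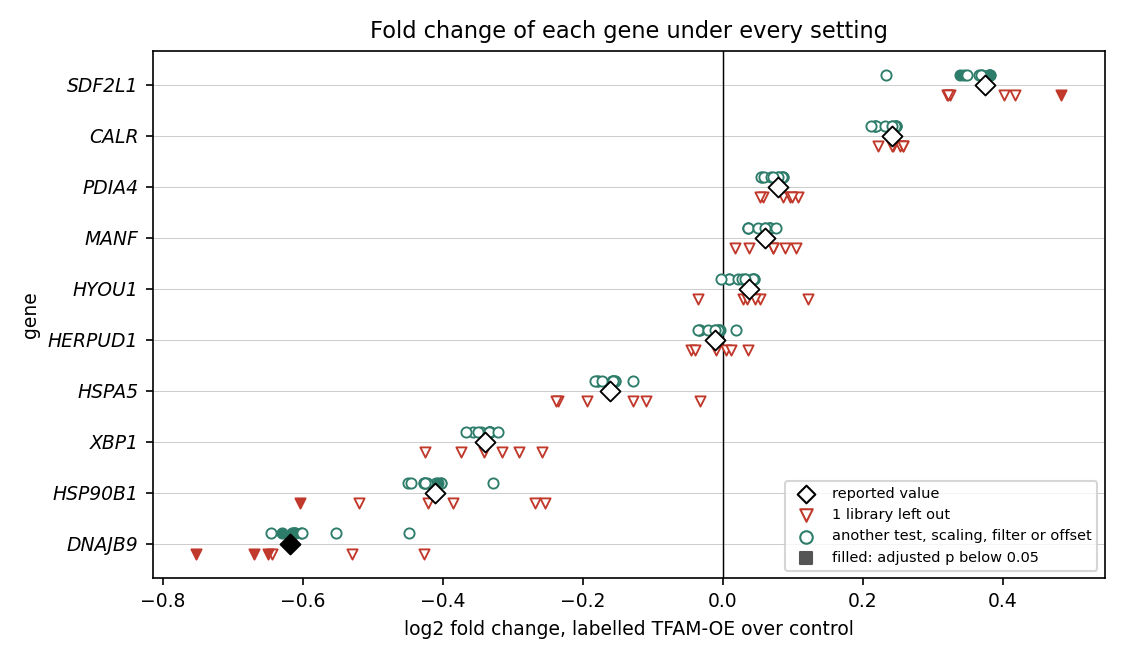
Log2 fold change of each of the 10 genes (vertical axis) under the reported fit (black diamond), with each library left out (red triangles) and with other tests, scalings, filters or offsets (green circles), filled where the adjusted p was below 0.05. DNAJB9 lies between -0.75 and -0.43 when libraries are left out and is filled for some settings only, whereas CALR, XBP1, PDIA4, MANF, HSPA5, HYOU1 and HERPUD1 have no filled point.

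Across the settings tried, the direction of HSPA5, HSP90B1, DNAJB9, SDF2L1, XBP1, CALR, MANF and PDIA4 was the same throughout, and HERPUD1 and HYOU1, the genes nearest to 0, lay on both sides of it. When 1 library was left out, the log2 fold change of HSP90B1 ran from -0.60 to -0.25, that of HSPA5 from -0.24 to -0.03 and that of SDF2L1 from 0.32 to 0.48. CALR moved least among the genes whose groups lay apart, from 0.22 to 0.26.

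The fold changes of the 10 genes were ordered much like the GC content of their transcripts. GC content, taken from the canonical transcript of each gene in GENCODE version 44, ran from 37.3% for DNAJB9 and 41.8% for HSP90B1 to 65.1% for SDF2L1, and Pearson's r and Spearman's rho with the log2 fold change were both 0.89 over the 10 genes, which share the same 6 libraries. Across 16340 genes tested with a known GC content, Pearson's r was 0.20. The median log2 fold change of these genes rose from -0.15 among the 1635 with the lowest GC content to 0.13 among the 1635 with the highest. When GC content was added to the fit as an offset for each library, a choice made after the data were seen, DNAJB9 had a log2 fold change of -0.45 (adjusted p = 0.0828), HSP90B1 one of -0.33 (adjusted p = 0.144) and SDF2L1 one of 0.23 (adjusted p = 0.0927). XBP1 and CALR, with 49.5% and 53.8% GC, moved less, to -0.32 and 0.21. With this offset 0 of the 10 genes were called. The offset was fitted to each library without regard to group, so it also removes any group difference that follows GC content.

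**Figure D4:**
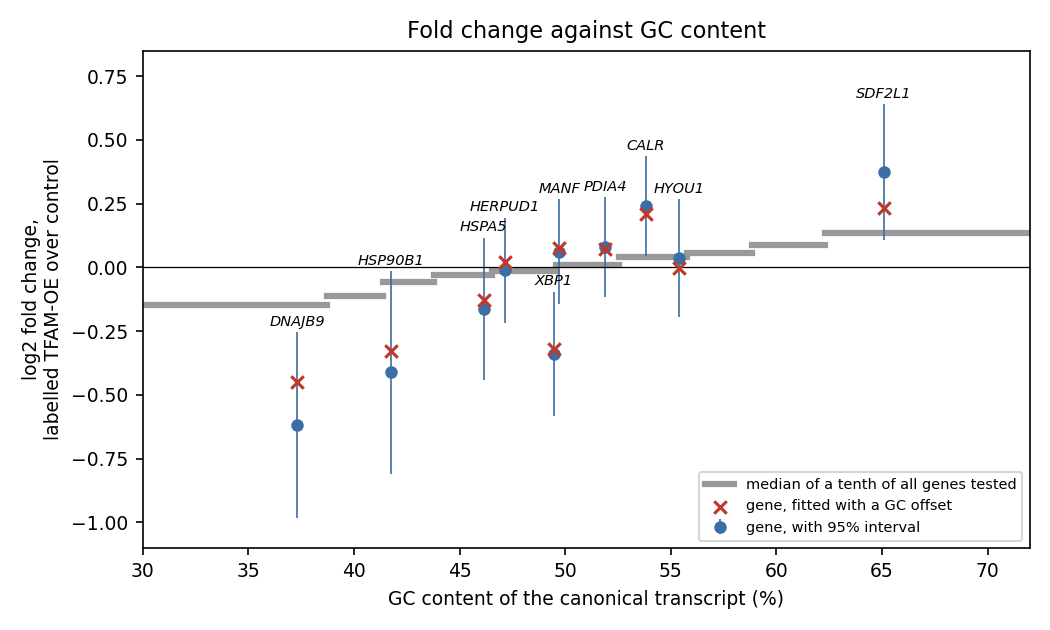
Log2 fold change of the labelled TFAM-OE libraries over the control (vertical axis) against the GC content of the canonical transcript in percent (horizontal axis) for the 10 genes (blue, with 95% intervals), the same genes fitted with a GC offset (red crosses) and the median of all genes tested in 10 bins of GC content (grey bars, drawn between 30 and 72%). DNAJB9 at 37.3% GC is lowest, SDF2L1 at 65.1% is highest, and the grey medians rise from -0.15 to 0.13.

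The other parts of the ER stress pathway were read from 7 further lists with 145 genes in all, of which 144 passed the filter and DERL3, with 4 to 13 reads in a library, did not. ERN1 was on both the list of stress sensors and that of the PERK arm and ATF4-CHOP targets, and these totals do not count it again. Of the 144, 4 were called higher and 8 lower, beside 3.48% and 4.81% of all genes, and their median log2 fold change was -0.08 beside -0.01 for all genes tested. These counts depended on single libraries, with 1 gene called higher and 3 lower without control replicate 1, without control replicate 2 or without TFAM-OE replicate 2, and 7 higher and 23 lower without TFAM-OE replicate 3. Of the 8 lower calls, 5 were in the list of the PERK arm and ATF4-CHOP targets.

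**Figure D5:**
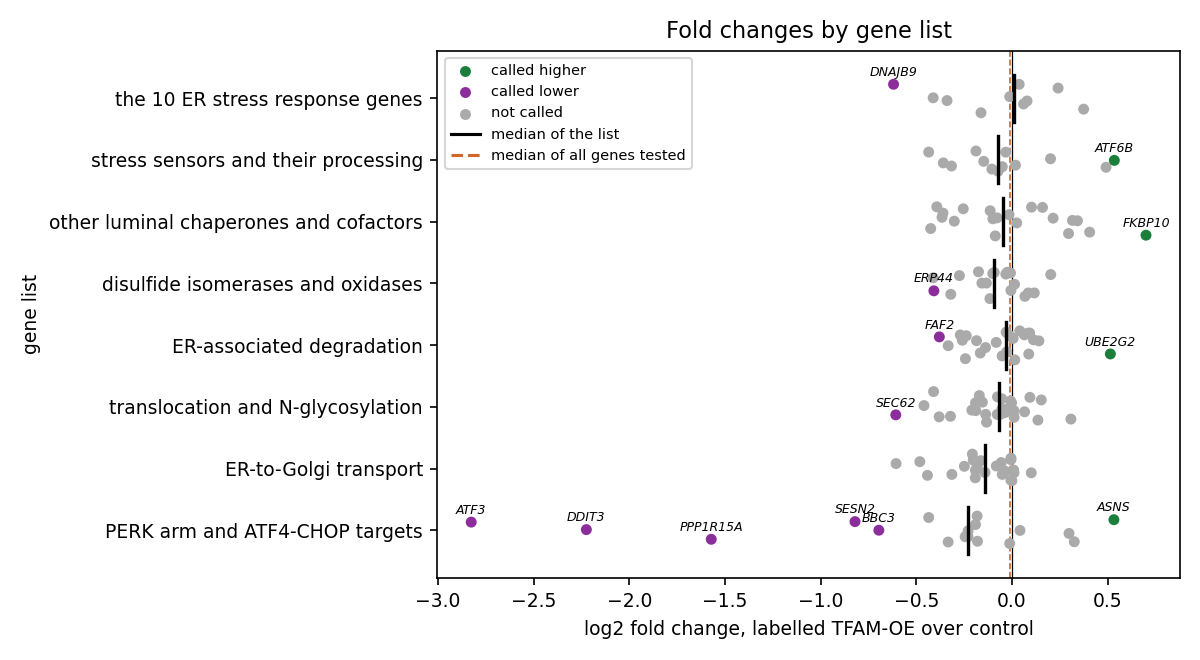
Log2 fold change (horizontal axis) of every tested gene of the 10 ER stress response genes and of 7 further lists of the pathway (vertical axis, 1 point per gene with vertical jitter), with called genes named in green (higher) or purple (lower), the median of each list in black and the median of all genes tested dashed. The points of most lists lie around 0, and ATF3, DDIT3 and PPP1R15A lie farthest to the left, at -2.83, -2.23 and -1.57.

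Among 13 genes for the stress sensors and their processing, 1 was called higher, with a median log2 fold change of -0.07. The gene was ATF6B, which encodes a relative of ATF6, at 22.5 ± 3.61 CPM in the control and 32.6 ± 1.95 CPM in the TFAM-OE-labelled libraries (SD, n = 3; log2 fold change 0.54, adjusted p = 0.0403). The sensors themselves were not called. ERN1 had a log2 fold change of -0.44 (95% interval -0.87 to -0.0047, adjusted p = 0.192), EIF2AK3 one of -0.32 (-0.75 to 0.12, adjusted p = 0.345) and ATF6 one of -0.03 (-0.26 to 0.20, adjusted p = 0.880). Without TFAM-OE replicate 3, ERN1 had a log2 fold change of -0.61 and an adjusted p of 0.0246.

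Of 20 other luminal chaperones and cofactors, 1 was called higher, with a median log2 fold change of -0.05. This was FKBP10, a prolyl isomerase of the ER that acts on collagen, at 81.9 ± 6.33 CPM in the control and 133 ± 7.46 CPM in the TFAM-OE-labelled libraries (SD, n = 3), and it rose by 0.70 on the log2 scale (adjusted p = 0.00335). It was past the threshold in all the other fits as well, with an adjusted p of at most 0.0352. Of 19 disulfide isomerases and oxidases, 1 was called lower, ERP44, which retains client proteins by thiol bonds and fell by 0.41 on the log2 scale (adjusted p = 0.0484), a value that became -0.26 (adjusted p = 0.111) with the GC offset. The median of that list was -0.09.

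For ER-associated degradation, 24 of 25 genes were tested, 1 was called in each direction, and the median log2 fold change was -0.03. UBE2G2, a ubiquitin-conjugating enzyme, rose by 0.51 (adjusted p = 0.0182), from 42.3 ± 4.18 to 60.4 ± 2.24 CPM (SD, n = 3), and FAF2, which recruits the p97 segregase, fell by 0.38 (adjusted p = 0.0495), from 109 ± 7.96 to 84.0 ± 6.99 CPM (SD, n = 3). Of 28 genes for translocation and N-glycosylation, 1 was called lower, SEC62, a component of the translocation channel, which fell by 0.61 (adjusted p = 0.0297), and the median was -0.07. Of 23 genes for ER-to-Golgi transport, 0 were called in the reported edgeR fit or by limma-voom or limma-trend and 1 by DESeq2, while 4 had an unadjusted p below 0.05 in edgeR, all with lower values, as had 13.2% of all genes. SEC24D, a cargo adaptor of COPII vesicles, had the smallest p, at -0.61 on the log2 scale (adjusted p = 0.0678), and was the gene DESeq2 called (adjusted p = 0.0203). It was also past the threshold in edgeR without control replicate 3 (-0.75, adjusted p = 0.0417), without TFAM-OE replicate 3 (-0.74, adjusted p = 0.00923), without the filter on low counts (adjusted p = 0.000423) and with the GC offset (adjusted p = 0.0469). The median of that list was -0.14, and 20 of its 23 values were below 0, beside 8457 of 16555 for all genes. Its median GC content of 44.3% was the lowest of the lists, beside 49.55% for all genes tested. Genes tested with 43.8 to 46.5% GC had a median log2 fold change of -0.03. Whether GC content accounts for the lower values of this list was not tested.

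ATF6B, ERP44, UBE2G2, FAF2 and SEC62 each lost the call without control replicate 1, without control replicate 2 and without TFAM-OE replicate 2. Without these libraries in turn, the adjusted p of ATF6B was 0.136, 0.115 and 0.143, that of UBE2G2 0.0923, 0.103 and 0.101, and that of SEC62 0.151, 0.106 and 0.110. ERP44 had 0.199, 0.135 and 0.199, and FAF2 had 0.206, 0.159 and 0.199. The calls of ERP44 and FAF2 were also lost without control replicate 3 (adjusted p = 0.0608 and 0.0747) and without TFAM-OE replicate 1 (0.0521 and 0.0861), and with limma-voom, limma-trend, upper-quartile scaling and library size alone (0.0502 to 0.0774), and that of FAF2 with RLE scaling (0.0530). SEC62 lost the call with limma-trend (0.0548 and 0.0598) and library size alone (0.0610), and ATF6B with library size alone (0.0565).

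The list of the PERK arm and of ATF4 and CHOP targets gave the largest values of the pathway. Being on this list does not show that PERK acted on a gene here, and input from PERK was not tested. The list of 18 genes had 5 lower calls and 1 higher call, beside 4.81% and 3.48% of all genes tested. It was chosen with earlier results of these data known, so these counts are a description and not a test. The median log2 fold change of the list was -0.23, with quartiles of -0.63 and -0.05, beside -0.01 for all genes tested. Of the 18 values, 4 were above 0 and 14 below, and the genes of the list that are not named below were not called. DDIT3, which encodes CHOP, measured 69.3, 36.5 and 26.7 CPM in control replicates 1 to 3 and 11.4, 9.66 and 7.20 CPM in the TFAM-OE-labelled libraries. Even its lowest control library was above all labelled TFAM-OE libraries, and it fell by 2.23 on the log2 scale (95% interval -2.94 to -1.51, adjusted p = 0.00373). ATF3, a stress-induced transcription factor, measured 83.8, 41.1 and 24.3 CPM in the control and 7.53, 7.24 and 6.23 CPM in the TFAM-OE-labelled libraries, and fell by 2.83 (95% interval -3.67 to -1.98, adjusted p = 0.00276). PPP1R15A, which encodes GADD34, the regulatory subunit that reverses the translation block set by PERK, measured 444, 325 and 268 CPM against 146, 113 and 90.6 CPM, and fell by 1.57 (95% interval -2.03 to -1.11, adjusted p = 0.00245). For all 3 genes control replicate 1 was the highest library, and each was called in every other fit, with adjusted p-values of at most 0.0222, 0.0163 and 0.0177 for DDIT3, ATF3 and PPP1R15A.

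The other lower calls of this list were BBC3, a target of CHOP in cell death, at -0.70 (adjusted p = 0.0166), and SESN2, an antioxidant regulator, at -0.82 (adjusted p = 0.0220). Both are named because they complete the count and after their values were seen. Without control replicate 1, control replicate 2 and TFAM-OE replicate 2 in turn, the adjusted p of BBC3 was 0.0923, 0.0867 and 0.0827 and that of SESN2 0.112, 0.102 and 0.0977. ATF4 itself was not called, at 519, 494 and 501 CPM in the control and 487, 448 and 401 CPM in the TFAM-OE-labelled libraries, a log2 fold change of -0.18 whose adjusted p was 0.292 although the groups did not overlap. ASNS, the asparagine synthetase and a target of ATF4, was the 1 gene called higher, with 61.1, 57.0 and 58.5 CPM in the control and 77.0, 83.2 and 95.5 CPM in the TFAM-OE-labelled libraries (log2 fold change 0.53, adjusted p = 0.0162). Its adjusted p was 0.0653 without control replicate 1, 0.0942 without control replicate 2 and 0.0822 without TFAM-OE replicate 2. Between the luminal targets and this list no difference was tested. The values side by side are a range from -0.62 to 0.38 for the 10 genes and from -2.83 to 0.53 for the 18 genes of the PERK list, which includes ERN1. All came from the same 6 libraries.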

How the data were processed

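Polyadenylated RNA of 3 control and 3 labelled TFAM-OE cultures was prepared with a stranded mRNA kit and sequenced as paired reads. The authors removed adaptor and low-quality sequence, aligned the reads to GRCh38 with TopHat2 and counted uniquely mapped reads per gene, and they deposited these raw counts together with FPKM values calculated from them, without pooling replicates. Which program and gene models they counted with, and whether strand was used, is not given in the sources used here. Overlapping genes could share reads, and in GENCODE HSP90B1, CALR, HERPUD1 and HYOU1 each overlap at least 1 other gene. Unused value columns numbered 0.

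Genes were filtered with filterByExpr (minimum count 10), scaled by TMM and compared in R (4.3.3) with the two-sided quasi-likelihood test of edgeR (4.0.16), without pairing, and p-values were adjusted by Benjamini-Hochberg over 16555 genes. A positive log2 fold change means a higher value in the TFAM-OE-labelled group. Alternatives were DESeq2 (1.42.0), limma-voom and limma-trend (limma 3.58.1) on log2(FPKM + 0.1) or log2(FPKM + 1), RLE, upper-quartile or no scaling factors, no filter, at least 50 reads in at least 3 libraries, a replicate block, each library left out, and a 2-fold threshold. A GC offset was added after the data were seen. FPKM was used as deposited for levels between genes. Totals of 26650854 to 37321956 reads per library limit the counting error only, without molecular identifiers.

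Gene positions and GC content were read from GENCODE version 44 (97.2% of gene IDs matched), and promoter windows from RefSeq (GRCh38.p14), matched by symbol for 10 of 10 genes. Where a gene had 2 windows, both were searched. Protein sequences were not used. The 10 genes and the gene lists were chosen with earlier results of these data known. Named from the other lists were the sensors, ATF4, DDIT3 and, per list, up to 2 called genes with the smallest p in each direction or, with none called, the gene with the smallest p. The test was tested on simulated data.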

Additional observations from a re-analysis of the deposited data

How the results depend on the processing

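Counts and calls near the threshold depended on the settings. Beside 0 genes higher and 1 lower of the 10, DESeq2 gave 1 higher (SDF2L1, log2 fold change 0.38, adjusted p = 0.0497), limma-voom 0 lower (DNAJB9 -0.60), limma-trend with 0.1 or 1 added 1 higher and 0 lower (SDF2L1 0.35 and 0.34, DNAJB9 -0.62 and -0.55), library size alone 0 lower (DNAJB9 -0.65), no filter 1 higher and 2 lower (SDF2L1 0.38, HSP90B1 -0.41, adjusted p = 0.00982), the 2-fold threshold 0 lower, and the GC offset 0 lower (DNAJB9 -0.45), where HERPUD1 (0.019), HYOU1 (-0.0033) and ATF6 (0.072) changed sign. For the 7 other lists, the lower count was 13 with DESeq2, 17 without the filter and 3 with the 2-fold threshold, which left 0 higher. For all genes, the higher and lower counts were 932 and 1105 with DESeq2, 1034 and 1485 without the filter, and 74 and 342 with the 2-fold threshold. Without the filter, the prior degrees of freedom of edgeR were infinite, against 5.98 in the reported fit. The spread of a single gene between its own replicates then had no weight, which limits every call made without the filter. The causes of the differences between settings were not tested.

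Replicate numbers gave no sign of pairing the samples, and how the cultures were paired is not given in the sources read. Deviations of same-numbered libraries from their group means correlated at -0.22, 0.01 and -0.27 over 16555 genes. Control replicate 3 correlated with TFAM-OE replicate 1 at 0.25, and control replicate 1 with TFAM-OE replicate 3 at 0.24. The remaining pairs lay between -0.04 and 0.03. With the replicate block, 0 of the 10 genes were called (DNAJB9 -0.60, adjusted p = 0.117), 1 gene of the 7 other lists was called higher and 5 lower, and 74 and 285 of all genes. ATF6B (adjusted p = 0.103), ERP44 (0.166), UBE2G2 (0.101), FAF2 (0.189), SEC62 (0.132) and ASNS (0.0913) lost their calls under the block.

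With each library left out, the 10 genes gave 0 to 1 called higher and 0 to 2 lower, the other lists 1 to 7 and 3 to 23, and all genes 66 to 1428 and 240 to 1786. DNAJB9 ran from -0.75 to -0.43, HSP90B1 from -0.60 to -0.25, SDF2L1 from 0.32 to 0.48, HERPUD1 from -0.046 to 0.036, HYOU1 from -0.036 to 0.12, and ATF6 from -0.074 to 0.025. HERPUD1 changed sign without control replicate 1 (0.036), TFAM-OE replicate 2 (0.0041) and TFAM-OE replicate 3 (0.012), ATF6 without the first and second of these (0.0070 and 0.025), and HYOU1 without TFAM-OE replicate 3 (-0.036). Precision was set by 3 libraries per group rather than by read depth, and the interval beside each gene states it.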
